A study of Mus musculus with 3 samples.

Results

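The Fos and Jun family described here comprised 8 of 21883 protein-coding genes, chosen by name: Fos, Fosb, Fosl1 and Fosl2, Jun, Junb and Jund, and Atf3. All H3K27me3 peaks over each gene or within 20 kb of it were taken from both peak lists of the study, which gave 22 peaks in kidney of ADA-treated C57BL/6 mice and 12 in kidney of untreated C57BL/6 mice. Each group held 1 ChIP library, and the third sample, an input from untreated kidney, entered only through the authors' peak calling, for which the headers name an input per library. The series title also lists pod-SAHH-/- mice, which were not analysed here. The labels do not expand ADA and state neither a dose nor the number of mice behind a library.

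The proteins of these genes form AP-1, a family of dimeric transcription factors that bind DNA through a basic region and pair through a leucine zipper. Jun proteins pair with each other or with Fos proteins, whereas Fos proteins need a Jun partner. Fos, Jun, Junb and Atf3 are immediate early genes: they are transcribed within minutes of a growth factor or stress signal, and are otherwise held low. H3K27me3 is the mark that the Polycomb complex PRC2 leaves at silent genes, often over CpG-rich promoters. Peak lists carry no expression, so neither transcription of these genes nor the kidney origin of the material could be read from them. In kidney tissue, which mixes many cell types, a mark carried by few cells and a weak mark in all cells cannot be told apart.

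The ADA-treated list held 17612 peaks and the untreated list 8074, from 20602041 and 18849785 ChIP fragments. Pileup, the number of fragments over a base averaged over the peak, started at 10 in both lists, against a constant background of 3.24 in both. Fold enrichment below is the authors' own value, the pileup plus 1 over this background plus 1. A gene without a peak has no region that was called and is not shown to lack the mark. With 1 library per group, no difference between the libraries has a replicate check or a test, and the differences in depth and list length apply to every count below.

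The promoter windows of the genes show where the peaks meet the start of transcription, and 4 of them are given here. In the ADA-treated library they separate Junb, Fos and Jun, with a covered start, from Jund, whose peak lies inside the gene. The Fosb window, not printed, was uncovered like that of Jund. The windows run 5′ to 3′ from 250 bp before to 50 bp after the annotated start (RefSeq, GRCm38.p6). Capitals mark matches on either strand to TGACG, the half-site of the cAMP response element, or to TGACNTCA, a longer form that contains TGACG where N is G.

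Junb (chr8:84978699-84978998, minus strand): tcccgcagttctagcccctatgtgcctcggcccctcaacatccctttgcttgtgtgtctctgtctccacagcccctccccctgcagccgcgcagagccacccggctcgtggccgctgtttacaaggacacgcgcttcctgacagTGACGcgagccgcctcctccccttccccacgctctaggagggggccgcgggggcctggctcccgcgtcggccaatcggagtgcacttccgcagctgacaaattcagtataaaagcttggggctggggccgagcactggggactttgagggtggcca

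Fos (chr12:85473640-85473939, plus strand): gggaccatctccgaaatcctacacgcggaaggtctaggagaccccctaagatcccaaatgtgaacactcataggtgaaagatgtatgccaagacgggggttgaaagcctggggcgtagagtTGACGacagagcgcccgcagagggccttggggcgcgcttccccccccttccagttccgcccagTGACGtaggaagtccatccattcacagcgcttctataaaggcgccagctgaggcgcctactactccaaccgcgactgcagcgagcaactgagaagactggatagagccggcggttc

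Jun (chr4:95052173-95052472, minus strand): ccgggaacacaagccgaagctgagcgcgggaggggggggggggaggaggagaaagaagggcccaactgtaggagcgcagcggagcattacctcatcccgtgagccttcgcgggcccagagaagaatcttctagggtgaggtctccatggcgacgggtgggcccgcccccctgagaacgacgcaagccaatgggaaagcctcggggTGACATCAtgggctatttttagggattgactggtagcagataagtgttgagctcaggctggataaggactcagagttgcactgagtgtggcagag

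Jund (chr8:70697489-70697788, plus strand): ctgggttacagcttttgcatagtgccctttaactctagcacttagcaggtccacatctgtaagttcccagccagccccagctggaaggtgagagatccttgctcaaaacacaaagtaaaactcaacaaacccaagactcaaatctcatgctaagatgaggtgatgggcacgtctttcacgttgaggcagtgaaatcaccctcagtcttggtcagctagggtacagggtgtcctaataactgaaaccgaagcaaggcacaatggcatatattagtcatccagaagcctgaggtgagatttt

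The Junb window lay wholly under an ADA-treated peak and had 181 of its 300 bp under an untreated one. The Fos and Jun windows lay wholly under an ADA-treated peak and had 0 bp under an untreated one. The Jund window had 0 bp under a peak in either library, and the Jund peaks began further into the gene. Among the windows not printed, that of Fosl2 had 290 bp under an ADA-treated peak and 300 bp under an untreated one, that of Atf3 had 300 bp and 0 bp, and that of Fosb had 0 bp in both. Of 21262 promoter windows of protein-coding genes, 37.5% had at least 1 bp under an ADA-treated peak and 14.3% under an untreated one, against 5 and 2 of the 7 windows of this family. Wholly covered were 4 (Fos, Jun, Junb and Atf3) and 1 (Fosl2) of the 7, and 21.2% and 6.82% of all windows.

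The 7 windows differed in CpG content. Jund had 3 CpG dinucleotides, Jun 15, Fos 20, Junb 21, Fosb 25, Atf3 27 and Fosl2 32, where the median of all windows was 13. The Jund window, with the fewest, was untouched in both libraries, and the Fosl2 window, with the most, was covered in both, but Fosb was untouched with 25. Across all windows, 82.1% of those with 24 to 67 CpG had an ADA-treated peak and 35.9% an untreated one, whereas in those with 0 to 3 CpG the shares were 1.38% and 0.669%. The part of base composition in the values of these genes was not tested.

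**Figure D1:**
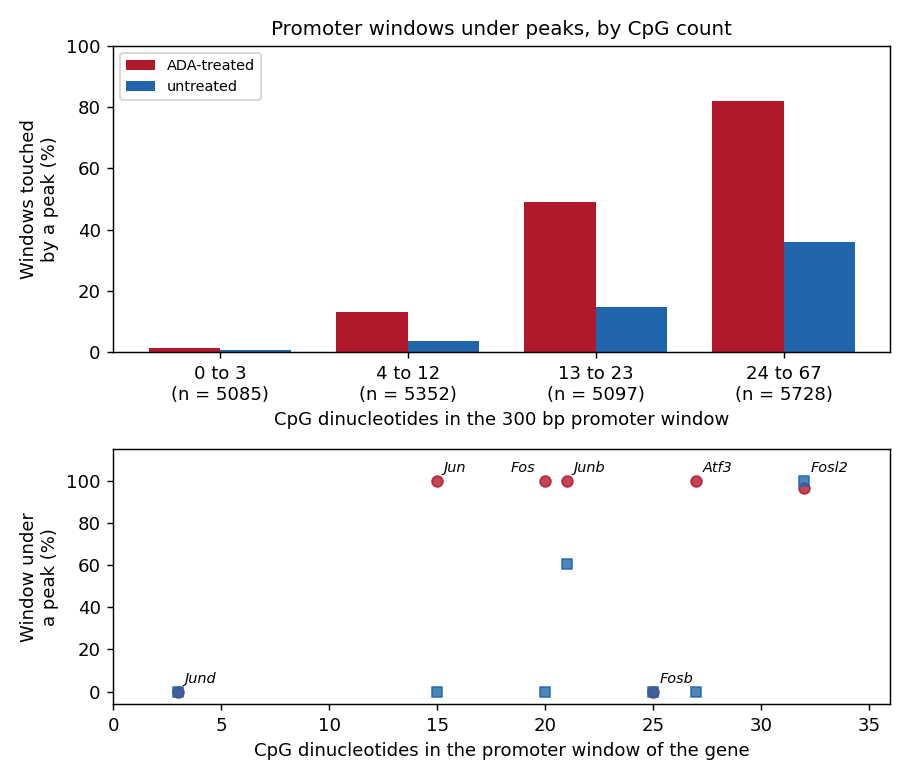
Top, share of promoter windows touched by a peak (%) against the number of CpG dinucleotides in the 300 bp window, in 4 classes of all windows. Bottom, share of the window of each of 7 genes under a peak (%) against its CpG count, with ADA-treated as circles and untreated as squares; in the top panel the ADA-treated share goes from 1.38% to 82.1%, and in the bottom panel Fosb has 25 CpG and no coverage.

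TGACG was found in 4 of the 7 windows (Fos, Fosb, Junb and Atf3) and in 23.6% of all windows. In Fos it began 129 and 66 bp before the start, in Fosb 60 bp before, in Junb 106 bp before and in Atf3, on the opposite strand, 7 bp before. TGACNTCA was found in Jun alone among them, as TGACATCA 45 bp before the start, and in 8.75% of all windows. TGANTCA, which allows any middle base and so includes more than the classical AP-1 site, was in none of the 7 windows and in 6.99% of all windows. The CArG box bound by SRF was in none of the 7 and in 1.52% of all windows. Sequence more than 250 bp before a start was not searched, so these genes are not shown to lack such a box farther upstream. These are matches of letters in a short window and not shown to be bound.

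A peak touched the gene body of all 8 genes in the ADA-treated library, where 48.7% of all protein-coding genes were touched, and of 4 genes in the untreated library, where 25.3% were. The untreated 4 were Fosl2, Jun, Junb and Jund. The family thus held 4 genes touched in both libraries (22.9% of all genes), 4 touched in the ADA-treated library alone (25.8%) and 0 in the untreated library alone (2.44%). Within 20 kb of the body there was a peak for 8 genes in the ADA-treated list (61% of all genes) and for 7 in the untreated list (39.2%), the exception being Fos. At least 50% of the body was covered in Junb, Jund and Jun for ADA-treated peaks and in 0 genes for untreated peaks, and the shares over all genes were 1.72% and 0.475%. Short genes are covered more easily, and among the 5034 protein-coding genes under 5 kb, which include these 3 and Fos, the same shares were 6.14% and 1.91%. All 4 of these short genes were touched in the ADA-treated library, against 25% of genes under 5 kb, and 3 in the untreated one, against 12.8%.

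The counts of touched bodies depended on the limit set on the peaks. Peaks on these bodies had a median pileup of 12.58 (ADA-treated) and 10.8 (untreated), against 11.61 and 10.72 over the whole lists. The untreated ones lay between 10.2 and 12, where both lists start at 10. At a −log10 p of at least 5, 3 genes were touched in the ADA-treated library against 0 in the untreated one. At a pileup of at least 12 the counts were 5 and 1, where 7583 of 17612 ADA-treated and 1131 of 8074 untreated peaks remained. The shares of all protein-coding genes at these limits were not computed, so the counts cannot be set against genes at large. At a deposited q of at most 5%, all genes but Atf3, 7 in number, kept an ADA-treated peak on the body (39.7% of all genes) and 0 an untreated one (2.25%), although this q is reached at a pileup of 11.07 among ADA-treated peaks and only at 12.42 among untreated ones. With only the strongest 8074 ADA-treated peaks, the same 7 genes were touched, against 33.4% of all genes.

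**Figure D2:**
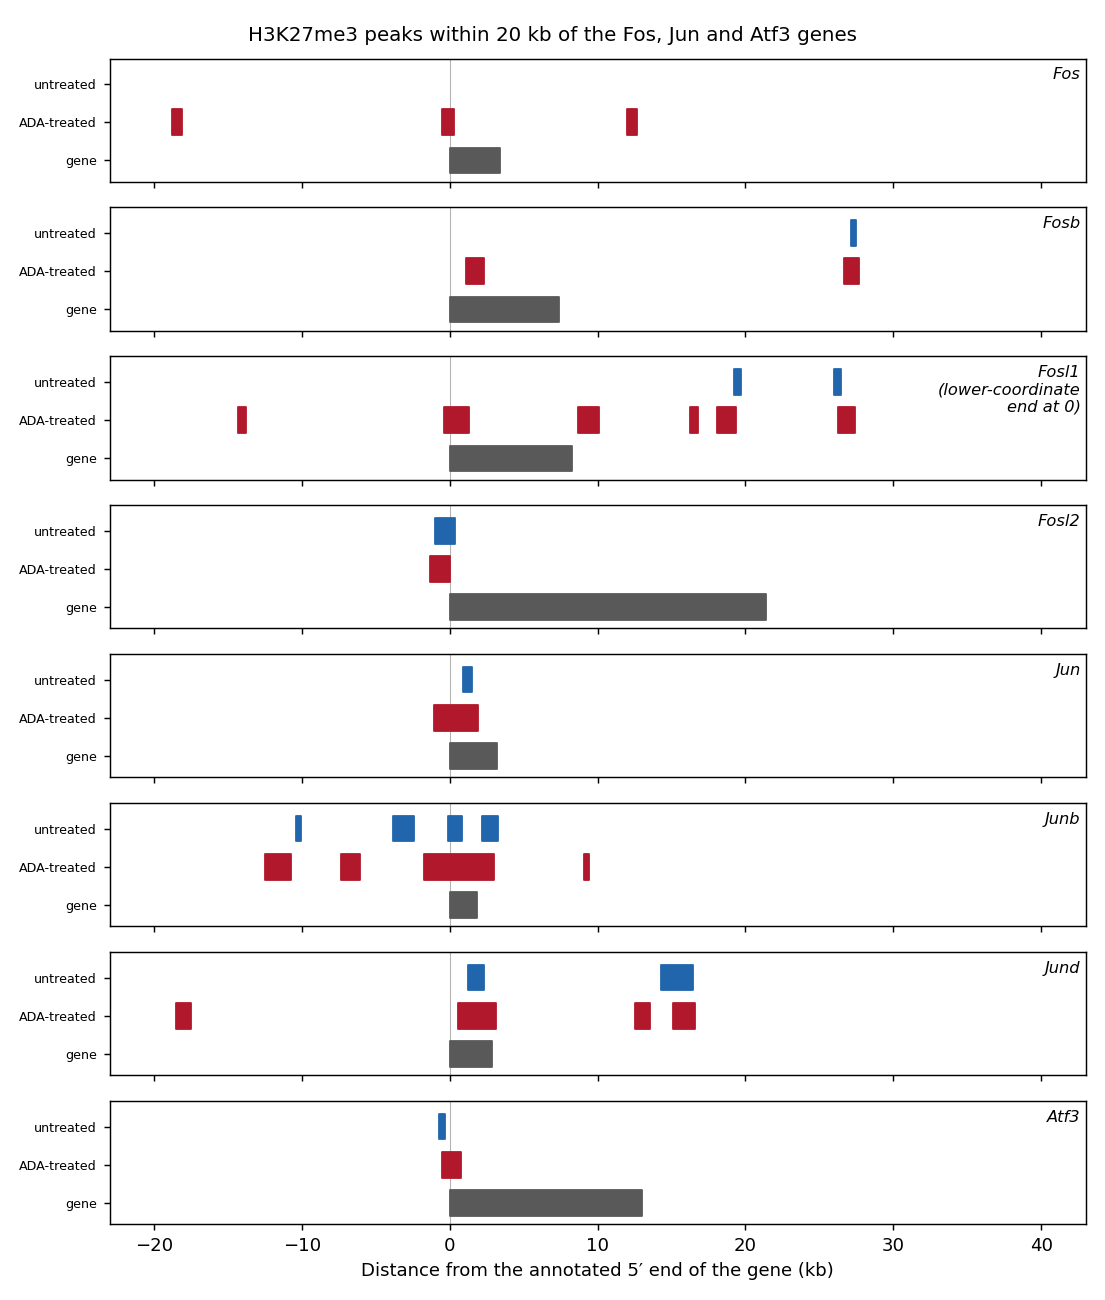
Peaks of the ADA-treated (red) and untreated (blue) library and the annotated gene (grey) for 8 genes, by distance from the 5′ end of the gene in kb (for Fosl1, from the end with the lower coordinate). The ADA-treated peaks of Jun, Junb and Jund cover most of their genes, and Fos has no untreated peak in the window.

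The 4 Fos genes had at most 17.1% of their bodies under a peak in either library. Among all protein-coding genes touched by a peak, the median coverage was 2.98% (ADA-treated, upper quartile 10.1%) and 2.53% (untreated, upper quartile 7.65%). Among touched genes under 5 kb, the class of Fos, the medians were 26.2% and 22.2%. Fos (chromosome 12, 85473890 to 85477274), which encodes c-Fos, the archetypal immediate early protein, had 3 ADA-treated peaks and 0 untreated peaks within 20 kb. The nearest untreated peak lay 121515 bp away. The ADA-treated peak at the start ran from 85473377 to 85474165, from 513 bp before the start to 275 bp after it, and covered 276 bp or 8.15% of the gene. Its pileup was 11.92 and its fold enrichment 3.05, close to the middle of the list, where 55.6% of peaks had a lower pileup. The peak thus met the promoter printed above in full and left most of the transcribed part of Fos uncovered. The other ADA-treated peaks lay 18090 and 8601 bp from the gene, with fold enrichments of 2.93 and 2.87.

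Fosb (chromosome 7, 19302696 to 19310118), whose product and its truncated form are known from long-lasting stimulation of neurons, had an ADA-treated peak wholly inside the gene, at 19307780 to 19309048. This peak covered 1269 bp, or 17.1% of the gene, with a pileup of 13.32, and began 997 bp after the start. The untreated list had no peak on the Fosb body. Both lists had a peak near the far end of the 20 kb window, of pileup 15.33 (ADA-treated) and 10.84 (untreated), and it touched the neighbouring gene Rtn2 and not Fosb.

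Fosl1 (chromosome 19, 5447698 to 5455938), which encodes Fra-1, had the most ADA-treated peaks in reach, 6, against 2 untreated ones. The peak on the body, at 5447331 to 5448991, covered 1294 bp or 15.7% of the gene at its lower-coordinate end, with a pileup of 12.57. No untreated peak touched the body. Of the other ADA-treated peaks, 4 touched the neighbouring genes Ccdc85b, Fibp, Ctsw and Efemp2, and the 2 untreated peaks touched Ctsw and Efemp2.

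Fosl2 (chromosome 5, 32136472 to 32157840), which encodes Fra-2 and is the longest of the 8 genes, was the sole family gene with more of its body covered in the untreated library. Its ADA-treated peak, at 32135118 to 32136511, covered 40 bp (0.187%) and its untreated peak, at 32135490 to 32136852, covered 381 bp (1.78%). Both peaks lay mainly before the start, by 1354 and 982 bp, and shared 1022 bp. Their lengths were alike, 1394 and 1363 bp, while the pileup was 14.79 in the ADA-treated library against 10.71 in the untreated one. Over the 4799 overlapping peak pairs of the lists, the median ratio of ADA-treated to untreated pileup was 1.21 (quartiles 1.07 and 1.41), and at Fosl2 it was 1.38.

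The 3 Jun genes, which are known to lack introns, were the ones with the largest share of their bodies under peaks. Jun (chromosome 4, 95049036 to 95052222), which encodes c-Jun, the main target of the JNK kinases, had 61% of its body covered in the ADA-treated library against 18.6% in the untreated one. The ADA-treated peak, at 95050279 to 95053316, was 3038 bp long, longer than 97.3% of that list, and ran from 1094 bp before the start to 1943 bp after it. It also touched Junos, a neighbouring transcript on the other side of the start. The untreated peak, at 95050714 to 95051305, was 592 bp long, lay wholly inside the ADA-treated one and did not reach the start. The pileups were 11.93 and 10.2, a ratio of 1.17, and the ratio of the lengths was 5.13. Each pileup is an average over its own peak, so with such unlike lengths it does not compare the heights. No other peak of either list lay within 20 kb of Jun.

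Junb (chromosome 8, 84976909 to 84978748) is the shortest gene of the 8, and its product often acts against c-Jun. It was the sole family gene with its whole body covered. The ADA-treated peak, at 84975757 to 84980516, was 4760 bp long, longer than 99.4% of the list, and extended 1768 bp before the start and 1152 bp past the other end. Complete coverage was seen in 0.133% of all protein-coding genes and in 0.536% of those under 5 kb in this library, and in 0.0411% and 0.119% in the untreated library, where it was met by 0 of the 8. In the untreated library, 45.1% of the body was covered by a peak of 960 bp at 84977920 to 84978879, which reached 131 bp before the start. A second untreated peak, at 84975501 to 84976591, lay 318 bp past the far end of the gene, and the ADA-treated peak overlapped both. The pileup was 12.59 in the ADA-treated peak and 12 and 11.59 in the untreated ones. Farther out, no peak of one list overlapped a peak of the other, though some lay close together. The untreated peaks 2429 bp from the gene on the promoter side and 10078 bp away on the neighbouring gene Hook2 overlapped no ADA-treated peak. The first of them began at 84981177, not far past the end of the ADA-treated peak over Junb. The ADA-treated peaks 7254 bp away (touching Rnaseh2a and Prdx2), 6052 bp away and 10765 bp away (touching Hook2) overlapped no untreated peak. On Hook2, the untreated peak ended at 84989156 and the ADA-treated one began at 84989513.

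Jund (chromosome 8, 70697739 to 70700616), the Jun gene that is expressed steadily in many tissues and not as an immediate early gene, carried the strongest peak of the family. The ADA-treated peak, at 70698323 to 70700865, had a pileup of 18.93 and a fold enrichment of 4.70, and 97.1% of that list had a lower pileup. It began 584 bp after the annotated start, covered 79.7% of the body and ended 249 bp past the gene. The untreated peak, at 70698965 to 70700056, covered 37.9% with a pileup of 10.8, and lay wholly inside the ADA-treated one. The ratio of the pileups, 1.75, was higher than that of 94.9% of all overlapping pairs, and the next highest of the family was 1.41, at the Rtn2 peaks near Fosb. Lengths were unlike in both pairs, 2543 and 1092 bp at Jund and 1036 and 339 bp at Rtn2. As for Jun, such ratios of averages do not compare the heights. Both lists also had a peak over the neighbouring gene Iqcn, 12248 bp (ADA-treated) and 11418 bp (untreated) from Jund, and there the untreated peak was the longer, with 2188 bp against 1494 bp.

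Atf3 (chromosome 1, 191170296 to 191183333), a stress-induced partner of Jun that represses many of its targets, had a peak over its start in the ADA-treated library and a peak before its start in the untreated one. The ADA-treated peak, at 191182602 to 191183843, ran from 510 bp before to 731 bp after the start and covered 732 bp, or 5.61% of the gene. The untreated peak, at 191183656 to 191184052, ended 323 bp before the start and covered none of the gene. They shared 188 bp. With pileups of 10.45 and 10.06, these were the weakest of the family's peaks in both lists, and 19.9% and 13.7% of the lists lay lower.

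**Figure D3:**
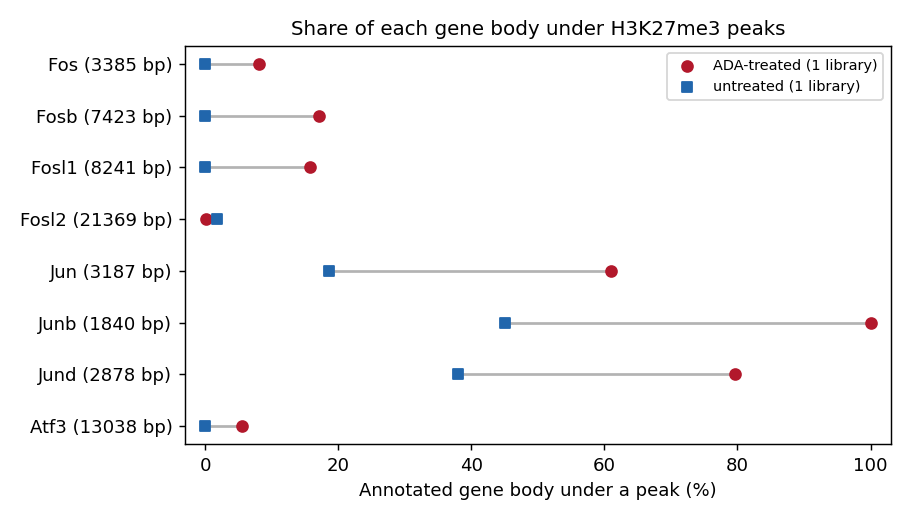
Share of each annotated gene body under a peak (%), with ADA-treated as circles and untreated as squares, 1 library each, and the gene length in parentheses. Junb, Jund and Jun reach 100%, 79.7% and 61% in the ADA-treated library, while the other genes stay at or below 17.1%.

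Taking the 8 genes side by side, coverage was higher under ADA-treated peaks for 7 and under untreated peaks for 1. Among all protein-coding genes touched in either library, these shares were 83.2% and 16.7%, so the split of this family is close to that of genes at large. Of the 12 untreated peaks 10 (83.3%), and of the 22 ADA-treated peaks 9 (40.9%), overlapped a peak of the other list, where the shares over the whole lists were 59.1% and 27%. Of the 22 ADA-treated peaks 17 had a q of at most 5%, and of the 12 untreated peaks 0 had, where the shares over the whole lists were 60.4% and 6.42%. The pileups ranged from 10.45 to 18.93 (median 11.8) in the ADA-treated library and from 10.06 to 12 (median 10.8) in the untreated library, and the medians of the whole lists were 11.61 and 10.72. In the ADA-treated list, Jund and Fosl2 (84% of the list lower) had the highest peaks on a body, and those of the other 6 genes stood above 19.9% (Atf3) to 73.3% (Fosb) of the list, as the plot of pileups shows. At the limit of the 20 kb window, the farthest peak inside was the untreated peak 19735 bp from Fosb (fold enrichment 2.79), and the nearest outside was an ADA-treated peak 20415 bp from Fosl1 (3.59).

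**Figure D4:**
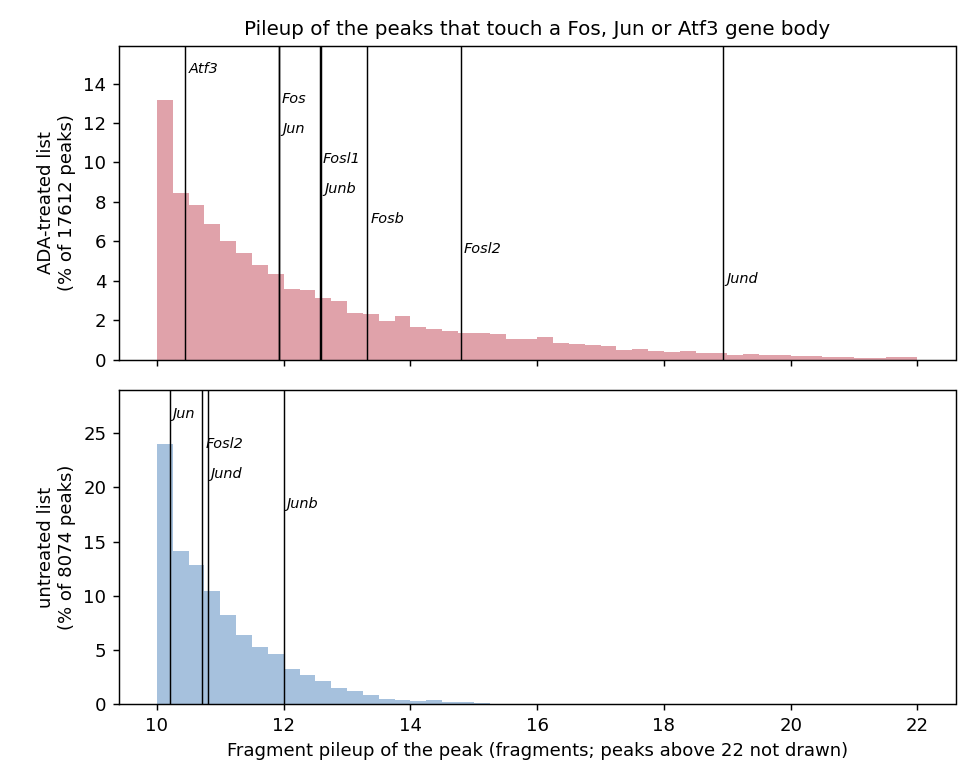
Distribution of the fragment pileup of all peaks of each list (% of the list), with black lines at the peaks that touch 1 of the 8 gene bodies. In the ADA-treated list Jund lies at 18.93 and Fosl2 at 14.79, and the 4 untreated lines lie between 10.2 and 12.

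Other genes of the AP-1 system were described by the same rule. Of 12 further leucine zipper partners, 11 were touched in the ADA-treated library against 8 in the untreated one, 8 of them in both. The shares over all protein-coding genes were 48.7%, 25.3% and 22.9%. Atf4, the effector of the integrated stress response, had 39.2% of its body covered in the ADA-treated library against 16.3% in the untreated one, Maff had 38.5% and 9.75%, and Maf had 35.1% and 0%. None of the 12 reached 50% in either library.

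Of 23 other immediate early genes, 13 of them under 5 kb, 19 were touched in the ADA-treated library against 13 in the untreated one. The shares were 48.7% and 25.3% over all protein-coding genes, and 25% and 12.8% over those under 5 kb. At least 50% of the body was covered in 4 (ADA-treated) and 2 (untreated) of the 23. This held for 1.72% and 0.475% of all protein-coding genes, and for 6.14% and 1.91% of those under 5 kb. Ier2 had 24.9% of its body covered in the ADA-treated library against 80.8% in the untreated one, and Egr1, a zinc finger factor induced together with Fos, had 51.7% and 52.6%. Gadd45b, a stress sensor, had 100% and 0%, and Socs3, a feedback inhibitor of cytokine receptors, had 58.1% and 35.5%. The genes whose pair of coverages lay nearest to that of Junb, by Euclidean distance over the 2 libraries, were Klf2, a zinc finger factor of endothelial cells (72.6% and 14.3%) at 41.2 percentage points, Socs3 at 43 and Gadd45b at 45.1. No gene of the list lay closer to Junb than that.

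Upstream of the family, 14 of 16 genes for the kinases and factors that switch it on were touched in the ADA-treated library against 5 in the untreated one, but mostly over a small part of long genes, with a median coverage of 1.32% and 0.609% among those touched. Mapk7, which encodes ERK5, had 29.9% of its body covered in the ADA-treated library against 0% in the untreated one, and Mapk3, which encodes ERK1, had 20.3% and 0%. Srf, which encodes the factor that binds the CArG box, had 16.6% and 7.05%, and Map2k7, a kinase of JNK, had 15.4% and 0%. Downstream, of 12 genes known as AP-1 targets, 2 were touched in the ADA-treated library against 1 in the untreated one. These were the cyclin gene Ccnd1 (6.87%) and the urokinase gene Plau (1.83%) in the ADA-treated library, and the gelatinase gene Mmp9 (3.63%) in the untreated library. The share of targets touched was below that of all genes in both libraries, 16.7% against 48.7% and 8.33% against 25.3%, while the other lists were above it. These lists were chosen with earlier results known, and no difference between lists was tested.

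**Figure D5:**
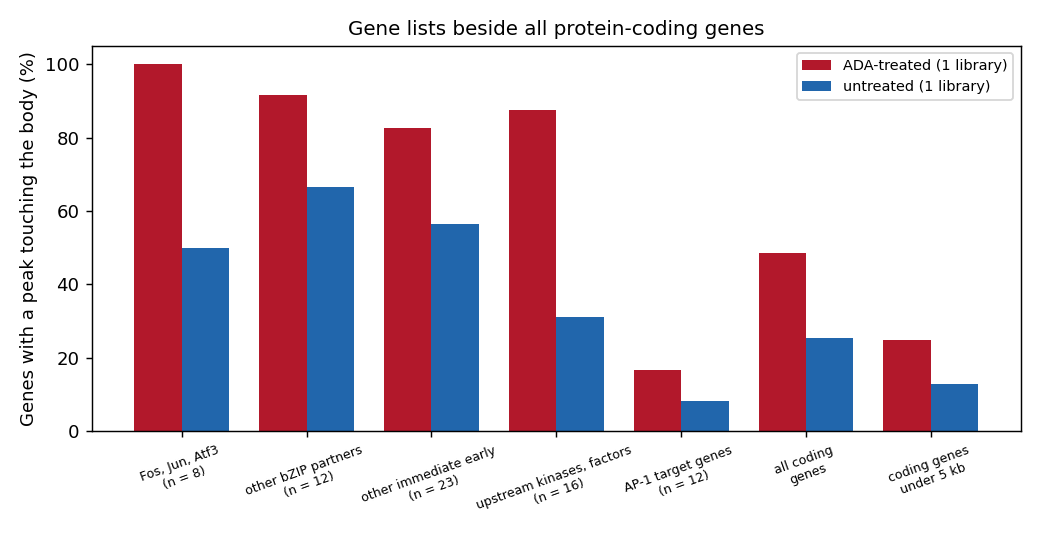
Share of genes with a peak touching the body (%) in 5 gene lists, in all protein-coding genes and in those under 5 kb, with 1 library per colour. The family stands at 100% (ADA-treated) and 50% (untreated), and the AP-1 target genes at 16.7% and 8.33%.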

How the data were processed

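H3K27me3 was mapped by ChIP-seq in kidney, and the treatment and antibody labels gave the groups. The authors called broad peaks with MACS 2.1.2, separately for each library against an input of its own, at a caller p threshold of 0.001 with the local background disabled, per the file headers. As deposited by the authors, signal means the fragment pileup averaged over a region, fold means (pileup + 1) divided by (constant background + 1), and −log10 values hold the caller's p and q. The build mm9 and CASAVA 1.4 stand in the submitters' processing notes, but 50% and 48.7% of the peak midpoints lay within 1 kb of a GRCm38 gene end (13.1% and 12.6% with gene positions shifted by 10 kb), so coordinates are given as GRCm38, 1-based. No source used here names the aligner.

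Overlaps of at least 1 bp were computed with Python 3.11.15, numpy 2.4.6 and pandas 2.3.3, and checked on simulated data. Gene bodies came from the RefSeq table of GRCm38.p6, which holds no exons, for 21883 protein-coding genes on the assembled nuclear chromosomes. Every member and list gene matched by symbol. Promoter windows (250 bp before to 50 bp after a gene start) are from RefSeq. Depth was 20602041 and 18849785 ChIP fragments, and the peak lists give no replicate error. The members, gene lists and rules were chosen with earlier results of these data known. Of each further list, up to 4 genes with the largest mean body coverage over both libraries were named, with the 3 immediate early genes nearest to the most covered member, and neighbouring genes were named where a member's peak touched them. A gene that this rule selects is not reported here. With 1 library per group, no test was run. Alternatives were stricter peaks, lists of equal length, merged peaks, other distances and other overlap rules. Figures were drawn with matplotlib 3.10.9.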

Additional observations from a re-analysis of the deposited data

How the results depend on the processing

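No paired analysis was possible because each group holds 1 library, and no library was left out for the same reason. With peaks of a −log10 p of at least 5, a peak within 20 kb was left for 4 genes (ADA-treated) and 0 (untreated), a touched body for 3 (Fosb, Fosl2 and Jund) and 0, and at least 50% coverage for 1 (Jund) in the ADA-treated library. For peaks whose q was 5% or less, the untreated counts of a peak within 20 kb and of a touched body were 0 and 0. Shared were 0 of 17 ADA-treated and 0 of 0 untreated peaks. With no untreated peak left to overlap, this result was fixed in advance and says nothing about sharing. With pileups of 12 or more, 5 genes (ADA-treated) and 2 (untreated) had a peak within 20 kb, and 5 and 1 (Junb) a touched body. Whole coverage was met by 1 gene in the ADA-treated library, and coverage of at least 25% by 2 genes in the untreated library. With a reciprocal overlap of at least 50%, 2 peaks of each list were shared. Fewer peaks pass each stricter rule by construction. For the limits on −log10 p and on pileup, the share over all protein-coding genes was not computed. Merged peaks and lists of equal length left the counts of a peak within 20 kb, of a touched body and of at least 50% coverage within 1.5 times, as did distances of 2, 5 or 50 kb for the first of these. A count of 0 under stricter rules and a count of 8 at a wider distance had no room to change. Peaks near a pileup of 10 lie at the lower limit of both lists, and no replicate shows how far their ends would move.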

Other observations

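The immediate early genes did not all have the larger coverage in the ADA-treated library. Of the 23 on the list besides the Fos and Jun family, 3 were touched in neither library. Of those touched, 14 had more of the body covered by ADA-treated peaks and 6 by untreated ones. Among all protein-coding genes touched in either library, these shares were 83.2% and 16.7%. Ier2 and Egr1 were named by the rule of largest mean body coverage over these same 2 libraries. The other genes were chosen for mention after their values were seen. All were thus picked by their values and are not independent examples. Ier2 had 24.9% of its body covered in the ADA-treated library against 80.8% in the untreated one. Myc, the growth regulator, had 0% and 27%, Dusp1, a phosphatase that switches off MAP kinases, had 26.1% and 45.1%, and Klf4 had 10.9% and 18.7%. Egr1 (51.7% and 52.6%) and Egr3 (36.4% and 36.9%) differed by less than 1 percentage point. Ier3, Klf6 and Ccn1 had no peak on the body in either library. With 1 library per group, none of these differences was tested.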
